A study of Homo sapiens with 2 samples.

Results

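The FAS and TRAIL pathways of cell death were described through 8 genes, taken by their symbols from the 46425 gene symbols of the deposited expression table. They are the ligand genes FASLG and TNFSF10, the receptor genes FAS, TNFRSF10A and TNFRSF10B, the adaptor gene FADD, the caspase gene CASP8 and the inhibitor gene CFLAR. All 8 had at least 20 counts over the libraries, the minimum that 13665 genes of the table reached, and these genes are called the tested genes below. In the library exposed to the antibody PPMX-T003, TNFRSF10A, TNFRSF10B, CFLAR, TNFSF10 and FASLG had a lower level than in the unexposed library beyond counting error. Of all tested genes 23.9% were lower and 21.8% higher beyond counting error. The point estimates of these 5 were all below 1.5-fold, while the counting interval of TNFRSF10A, a log2 fold change of -0.98 to -0.060, reached past 1.5-fold. FAS, FADD and CASP8 differed by no more than counting error. Once a trend with GC content and length of the transcripts was removed by a fit, TNFSF10 no longer differed beyond counting error and CASP8 was higher beyond it, by a log2 fold change of 0.074, and CFLAR lay at 0.0022 where each gene's longest transcript entered that fit.

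FAS ligand and TRAIL, the product of TNFSF10, are membrane proteins of the TNF family that bind receptors with an intracellular death domain. The bound receptors gather the adaptor FADD, which recruits caspase-8, and caspase-8 then activates itself and cleaves the executioner caspases. The product of CFLAR, c-FLIP, resembles caspase-8 without being an active protease and takes its place in the complex. Natural killer (NK) cells use both ligands, beside perforin and granzymes, to kill target cells, and they carry death receptors themselves.

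NK92 is an established human NK cell line, here grown in medium with 2% human serum, and PPMX-T003 is an antibody that blocks transferrin receptor 1, through which cells take up iron. The exposed cells had PPMX-T003 in their medium (10 µg/mL) during the last 6 h before harvest, and the unexposed cells, which came from the same 18 h culture, received nothing. Polyadenylated RNA of each dish gave 1 library made with a stranded kit. The table calls the unexposed dish 0 h and the exposed dish 6 h, although by the methods both were kept in culture equally long, so time and exposure cannot be told apart if the names are literal.

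Totals were 46766416 counts without and 43178462 with PPMX-T003, of which the 8 genes took 27604 and 23602. With 1 library per condition no difference has a replicate check and no p-value is given. Each log2 fold change compares the exposed with the unexposed library, and the interval beside it is a 95% Clopper-Pearson interval that covers counting error alone. It compares these libraries, not the conditions. Fewer cells that express a gene and less RNA of it per cell cannot be told apart in such libraries.

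The NK label was read against marker genes. All 12 NK cell markers were detected, with a summed level of 4548 counts per 1000000 counts (CPM) in the unexposed and 5041 CPM in the exposed library. IL2RB had the most counts of them (1202 and 1298 CPM), a rank that is not corrected for gene length. By the deposited TPM, a level per length, NKG7 stood above it, at 3215 and 3445 against 669 and 696. Of 12 T cell markers, 7 exceeded 3 counts in a library, summing to 778 and 845 CPM, and CD3E had the most counts (408 and 439 CPM). The others of these 7 were CD247 (6963 and 7047 counts), TRBC1 (3664 and 4100), TRBC2 (2945 and 3260), CD28 (2252 and 1803), TRAC (1501 and 1312) and CD4 (4 and 0). CD3D, CD3G, CD8A, CD8B and CD5 had 0 counts in both libraries. B cell markers summed to 3.95 and 2.09 CPM, with the most counts for PAX5, at 3.61 and 1.81 CPM, and MS4A1 and CD22 at 0. Myeloid markers summed to 9.08 and 10.8 CPM, with MPO and FCN1 at 0. Of the myeloid markers ITGAM had the most counts in the unexposed (4.55 and 4.17 CPM) and CD68 in the exposed library (4.02 and 6.21 CPM). By TPM CD68 stood above ITGAM in both libraries, at 5 and 8 against 3 and 2. The 5 erythroid markers had no count, and the 6 epithelial and stromal markers had at most 2 counts each. Some of these markers differed between the libraries by more than any of the 8 genes did, with PAX5 at 169 and 78 counts (log2 fold change -0.98, 95% counting interval -1.40 to -0.60) and CD68 at 188 and 268 counts (0.62, interval 0.35 to 0.91). Their part in the results was not tested.

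Levels of different genes can be compared only per length, for which the deposited TPM values, rounded to whole numbers, were used. On this scale FASLG stood highest, at a TPM of 145 without and 132 with PPMX-T003. The intracellular genes came next, with CASP8 at 77 and 76, CFLAR at 65 and 57, and FADD at 61 and 62. TNFSF10 was at 39 and 34. The receptors had the lowest levels per length of the 8 genes, with TNFRSF10B at 20 and 15, FAS at 11 and 9, and TNFRSF10A at 2 and 1. The order of the genes was the same in both libraries except for CFLAR and FADD, which changed places. The place of CFLAR depends on the length used. Per median transcript length it stood above FASLG, at 210 CPM per kilobase against 83.9 in the unexposed library and 185 against 78.9 in the exposed one, and per longest transcript it stood at 17.4 against 62.3 and at 15.3 against 58.6. The receptors had the lowest levels with either length, with FAS above TNFRSF10B per median length. Thus transcripts of the ligands were more abundant than those of the receptors they bind in each library, FASLG over FAS by a TPM ratio of 13.2 and 14.7, and TNFSF10 over the sum of TNFRSF10A and TNFRSF10B by 1.77 and 2.13. These ratios also depend on the length. FASLG over FAS was 6.59 and 6.36 per median and 9.07 and 8.76 per longest transcript, and TNFSF10 over the sum of its receptor genes was 1.27 and 1.48 per median and 1.79 and 2.06 per longest transcript.

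**Figure D1:**
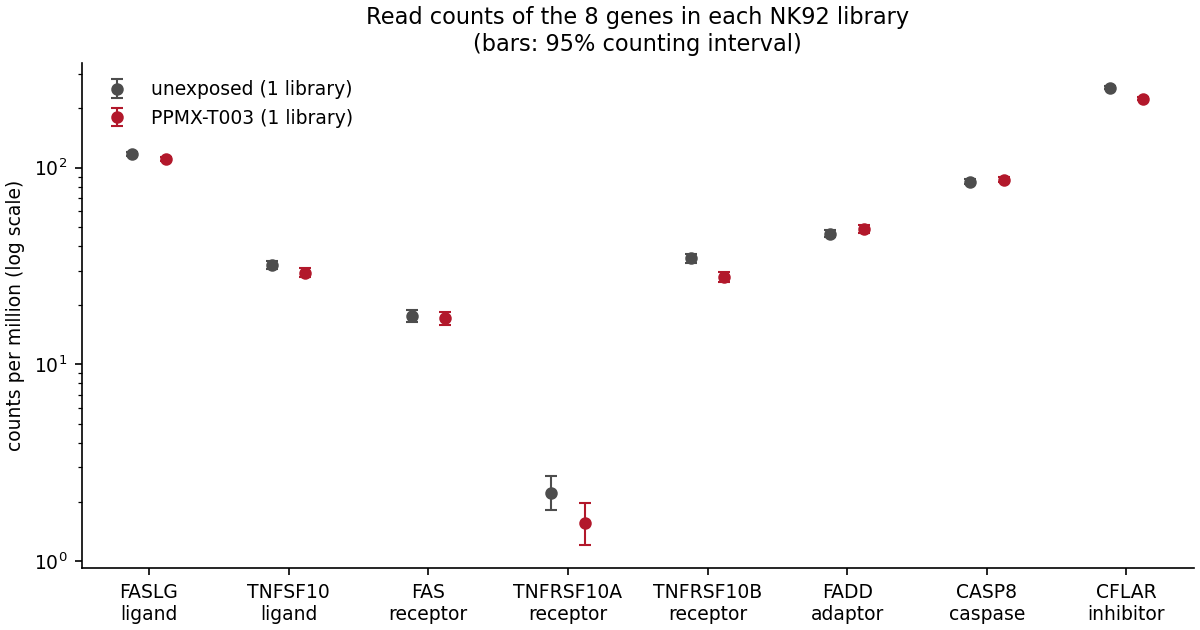
Level of each of the 8 genes in the unexposed (grey) and the PPMX-T003 (red) library, in CPM on a log axis, with bars for the 95% counting interval. Counts are not corrected for gene length, so heights should be compared between libraries and not between genes. The points of TNFRSF10B lie at 34.6 and 27.8 CPM, those of CASP8 at 84.8 and 86.9 CPM.

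FASLG (NCBI Gene ID 356), whose protein binds FAS, had 5507 counts in the unexposed and 4776 in the exposed library, or 118 CPM (95% counting interval 115 to 121) and 111 CPM (108 to 114). The level was lower in the exposed library by a log2 fold change of -0.088 (interval -0.14 to -0.032). TNFSF10 (8743), whose protein TRAIL binds the receptors of TNFRSF10A and TNFRSF10B, had 1496 and 1263 counts, or 31.97 and 29.27 CPM. Its log2 fold change was -0.13 (-0.24 to -0.018). Both ligand genes therefore lay on the lower side, but by little, and TNFSF10 was within counting error, at -0.045 (-0.15 to 0.064), after removal of a trend with GC content and length, which is described below. Of the tested genes with similar counts (quintiles of all tested genes by summed counts), 28.6% had a lower fold change than FASLG and 23.5% a lower one than TNFSF10.

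The promoters of both ligand genes held the letters GAAANNGAAA, a core of an element through which interferons act on genes. The matches are shown because these genes lay on the same side. TRAIL is known as an interferon-induced protein. Of 35116 promoters in the RefSeq table (GRCh38.p14), 3.02% had these letters on either strand in the 250 bases before the start. The table lists 13 promoters for 6 of the 8 genes, and 2 of the 13 had them. TNFRSF10A and TNFRSF10B, which were also lower, have no promoter there and were not searched. CFLAR was lower too, and none of its promoters had these letters. Windows of 30 bases around each match are printed in the direction of the gene, with the match in capitals. In FASLG (chr1:172659021-172659050, plus strand) it lies from 72 to 63 bases before the RefSeq start, within the first exon of a longer transcript in GENCODE release 29. In TNFSF10 (chr3:172523598-172523627, minus strand) it lies from 187 to 178 bases before the start, upstream of all annotated transcripts there, and is read on the opposite strand.
FASLG: gagagatagaGAAAGAGAAAgacagaggtg
TNFSF10: gaggagcttcTTTCAGTTTCcctcctttcc
The other letters searched on both strands were TATAAA, found for CASP8 and TNFSF10 (10.7% of all promoters), GGGCGG, found for CASP8, CFLAR, FADD, FAS and FASLG (42.6%), and TTCNNNGAA, found for CASP8 (6.57%). Of the 13 promoters, 2 had TATAAA, 8 had GGGCGG and 1 had TTCNNNGAA. A match describes the sequence and is not evidence that a factor binds there.

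Among the receptors, FAS (355) had 824 and 740 counts, or 17.6 and 17.2 CPM. Its log2 fold change of -0.038 (-0.18 to 0.11) was within counting error, so no difference of this receptor was detectable at this depth. TNFRSF10B (8795), the gene of TRAIL receptor DR5, had 1619 and 1201 counts, or 34.6 CPM (32.9 to 36.3) and 27.8 CPM (26.3 to 29.5). Its level was lower by -0.31 (-0.42 to -0.21), a fold of 0.805. Among tested genes with similar counts, 4.94% had a lower fold change. TNFRSF10A (8797), the gene of the other TRAIL receptor with a death domain, DR4, had 104 and 67 counts, or 2.22 CPM (1.816 to 2.693) and 1.55 CPM (1.203 to 1.972). Here the log2 fold change was -0.50 (-0.98 to -0.060), the lowest of the 8 genes and the least precise, and 4.43% of the tested genes with similar counts lay below it. Both TRAIL receptor genes were thus lower in the exposed library, while FAS showed no difference beyond counting error on this scale. With the deposited TPM, rounded to whole numbers, FAS was at -0.263.

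FADD (8772) encodes the adaptor that both receptor systems share. It had 2165 and 2108 counts, or 46.3 and 48.9 CPM, a log2 fold change of 0.079 (-0.0084 to 0.17). CASP8 (841), the initiator caspase of the pathway, had 3968 and 3748 counts, or 84.8 and 86.9 CPM, with a log2 fold change of 0.035 (-0.030 to 0.10). Neither the adaptor nor the caspase differed beyond counting error on this scale. FADD was higher, at 0.091 (0.0035 to 0.18), when the libraries were scaled by their upper quartiles. After the fit on length and GC content was removed, FADD was at 0.0038, or at -0.0345 with the longest transcripts, both within counting error. CASP8 was higher, at 0.074 (0.0090 to 0.14), after that fit. CASP8 was at -0.019 on the scale of the deposited TPM, where well-covered genes lay lower by a median of -0.054. CFLAR (8837), the gene of the caspase-8 inhibitor c-FLIP, had the most counts of the 8 genes, 11921 and 9699, or 255 CPM (250 to 259) and 225 CPM (220 to 229). Its level was lower by -0.18 (-0.22 to -0.14), and 10.9% of the tested genes with similar counts had a lower fold change. The direction was not kept with the longest transcripts in the fit, where CFLAR was at 0.0022. The counts join all transcripts of a gene, so the long and short forms of c-FLIP were not separated.

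**Figure D2:**
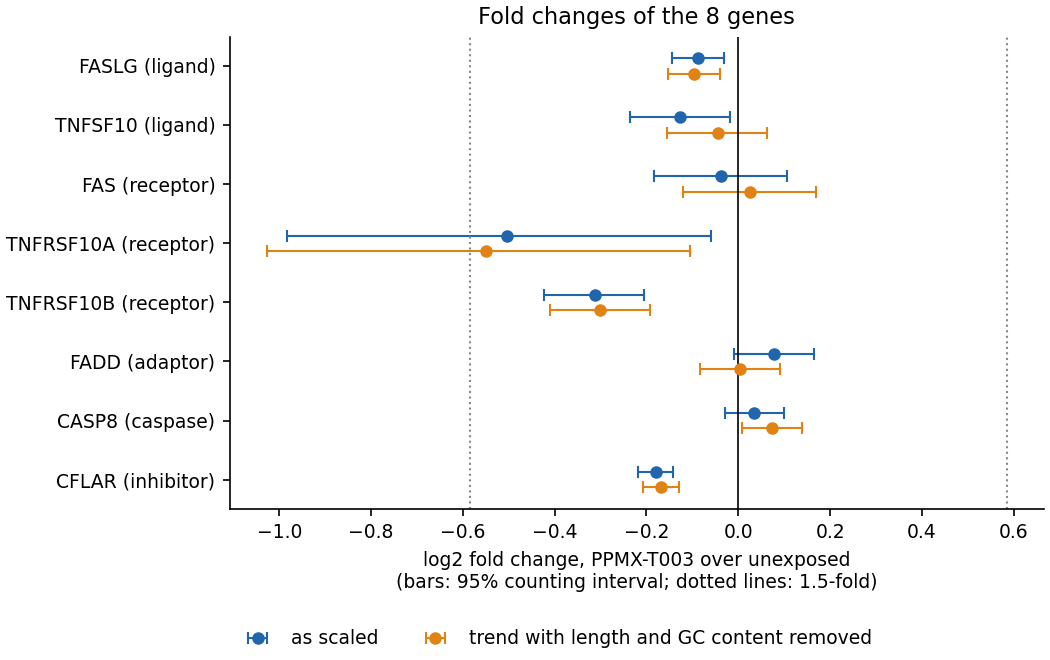
Log2 fold change of the 8 genes, PPMX-T003 over unexposed, as scaled (blue) and after the trend with transcript length and GC content was removed (orange), with 95% counting intervals. Dotted lines mark 1.5-fold. All points lie between the lines, and the as-scaled intervals of FASLG, TNFSF10, TNFRSF10A, TNFRSF10B and CFLAR lie below 0.

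Read against the whole table, 0 of the 8 genes were at least 1.5-fold higher, as 3.94% of the tested genes were, and 0 were at least 1.5-fold lower, as 3.84% were. None passed 2-fold either, which 1.27% of the tested genes did upwards and 1.38% downwards. The counting interval lay below 0 for 5 of the 8 genes and for 23.9% of the tested genes, and above 0 for 0 of the 8 and for 21.8% of the tested genes. The median log2 fold change was -0.11 over the 8 genes and -0.0020 over the tested genes. Intervals outside 0 were common among all genes, since well-covered genes reach them with small differences. Log2 fold changes of the tested genes in the highest quintile of counts, which holds FASLG and CFLAR, had a central 95% range from -0.28 to 0.21. In the quintile below it, with CASP8 and FADD, that range was -0.30 to 0.24, in the middle quintile, with TNFSF10, FAS and TNFRSF10B, it was -0.37 to 0.33, and in the quintile that holds TNFRSF10A it was -0.63 to 0.64. Each of the 8 values lay within the range of its quintile.

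**Figure D3:**
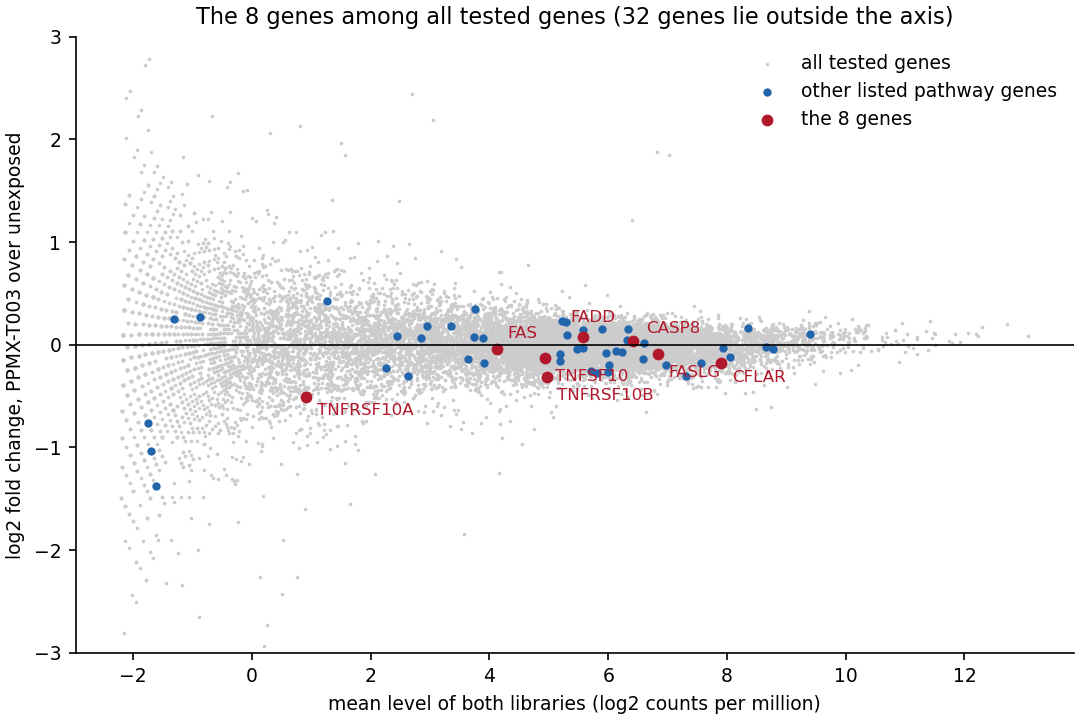
Log2 fold change against the mean level of both libraries in log2 CPM, for all tested genes (grey), the other listed pathway genes (blue, 1 of them not marked) and the 8 genes (red). The spread of the grey points narrows as the level rises, and the 8 genes lie within it.

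Transcripts with a higher GC content tended to have higher fold changes. Among 9926 genes with at least 200 counts, the median log2 fold change went from -0.11 in the quintile of lowest GC content, which spans 31.8% to 42.1%, up to 0.11 in the quintile of highest GC content, which spans 58.2% to 74.1%. TNFSF10 (40.9%) and FAS (41.9%) lie in the lowest of these quintiles and FADD (58.6%) in the highest. FASLG (49.7%), CFLAR (46.9%), TNFRSF10B (51.2%) and TNFRSF10A (52.6%) have an intermediate GC content. After a fit on length and GC content was removed, TNFRSF10B was at -0.30 (-0.41 to -0.19), TNFRSF10A at -0.55 (-1.03 to -0.10), CFLAR at -0.17 (-0.21 to -0.13) and FASLG at -0.096 (-0.15 to -0.040). TNFSF10 was then at -0.045 (-0.15 to 0.064), within counting error, FADD at 0.0038 and FAS at 0.025. The interval of CASP8 no longer held 0, as given above. On this scale the interval lay below 0 for 4 of the 8 genes, against 20% of the 12092 tested genes with a GC value, and above 0 for 1, against 20.1%. The longest annotated transcript of CFLAR has 14672 bases with a GC content of 44.1%, against medians of 1214 bases and 46.9%. When longest transcripts entered the fit, CFLAR was at 0.0022, and the cause was not tested, while TNFRSF10B stayed at -0.30 and TNFRSF10A at -0.53.

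**Figure D4:**
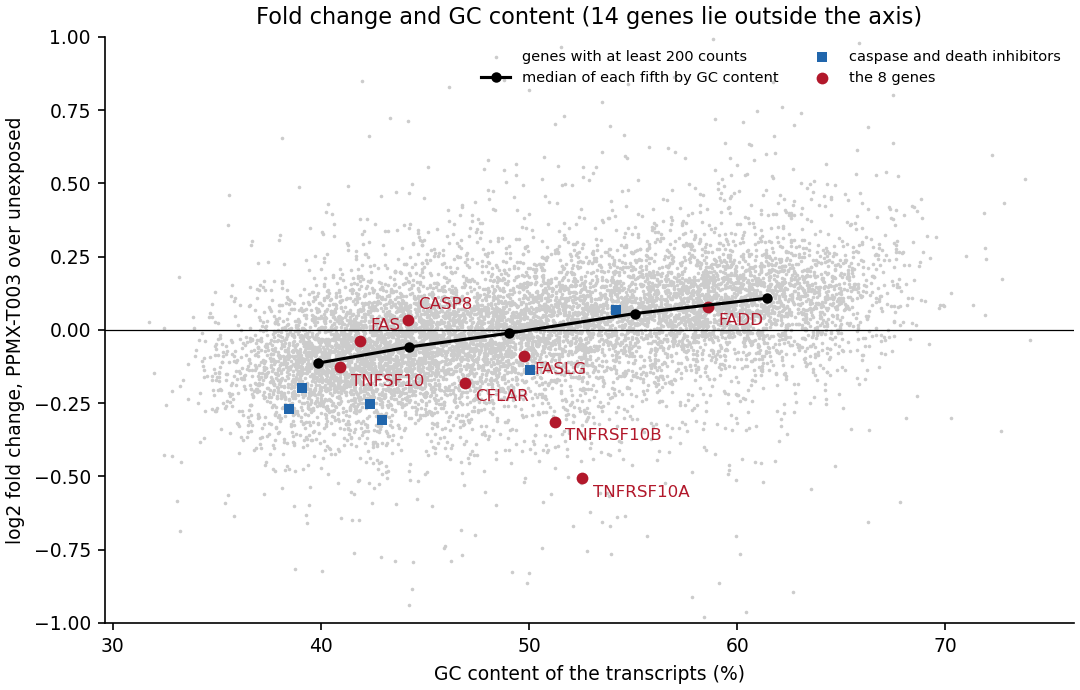
Log2 fold change against the GC content of each gene's transcripts in percent, for genes with at least 200 counts (grey), the medians of quintiles of these genes by GC content (black line), the caspase and death inhibitors (blue squares) and the 8 genes (red), among which TNFRSF10A has fewer counts. The black line goes from -0.11 to 0.11, and TNFRSF10B, TNFRSF10A and CFLAR lie below it.

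Ratios of counts within a library do not depend on how the libraries are scaled. CFLAR had 3.004 counts for each count of CASP8 in the unexposed library (95% Clopper-Pearson interval 2.90 to 3.11) and 2.588 in the exposed one (2.49 to 2.69). These ratios are not per length, and by TPM CFLAR lay below CASP8, at 0.844 and 0.75, but above it per median transcript length, at 3.16 and 2.72. The ratio of counts was lower by -0.22 on the log2 scale (-0.29 to -0.14), a value from counts alone, without the fit in which the direction of CFLAR was not kept. For the TRAIL system, the ratio of TNFSF10 to the sum of its receptor genes was 0.868 (0.810 to 0.931) and 0.996 (0.921 to 1.08), a change of 0.20 (0.046 to 0.35). So transcripts of this ligand stood higher relative to its receptors in the exposed library, because the receptor genes were lower by more than the ligand gene. In the FAS system, FASLG to FAS was at 6.68 and 6.45, a change of -0.050 (-0.21 to 0.11) that was within counting error. On the rounded TPM scale that change was 0.15, and the difference between the FAS and TRAIL systems was not tested. The ratio of TNFRSF10B to TNFRSF10A was 15.6 and 17.9, and its change of 0.20 (-0.27 to 0.68) was within counting error. The rounded TPM gave ratios of 10 and 15 for this pair, a change of 0.58.

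The 8 genes were set beside the other genes of the pathway, in 13 lists by role with 66 genes in all. Of these, 55 were tested and 11 had no more than 3 counts in each library. The interval lay below 0 for 22 and above 0 for 10 of the 55, with a median log2 fold change of -0.041, against 23.9% below and 21.8% above and a median of -0.0020 over all tested genes. After the fit on length and GC content was removed, the numbers were 19 and 7 and the median was -0.0058, against 20% and 20.1% and a median of 0.0031. Past 1.5-fold, 0 were higher and 3 lower, against 3.94% and 3.84%. These shares over all tested genes are those to set beside the smaller counts for each list. These 3 genes had few reads and were named after their values were seen. The executioner caspase gene CASP6 had 23 and 7 counts (-1.37, interval -3.06 to -0.33), and it alone of the 3 differed beyond counting error on this scale. The decoy receptor genes TNFRSF10C, with 18 and 9 counts (-0.76, interval -2.22 to 0.35), and TNFRSF6B, with 20 and 8 counts (-1.04, interval -2.60 to 0.040), had intervals that held 0, although that of TNFRSF6B lay below 0 after the fit (-1.19, interval -2.75 to -0.11). TNFRSF6B shares exons with the readthrough gene RTEL1-TNFRSF6B, which had 138 and 586 counts, so its own value is uncertain.

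**Figure D5:**
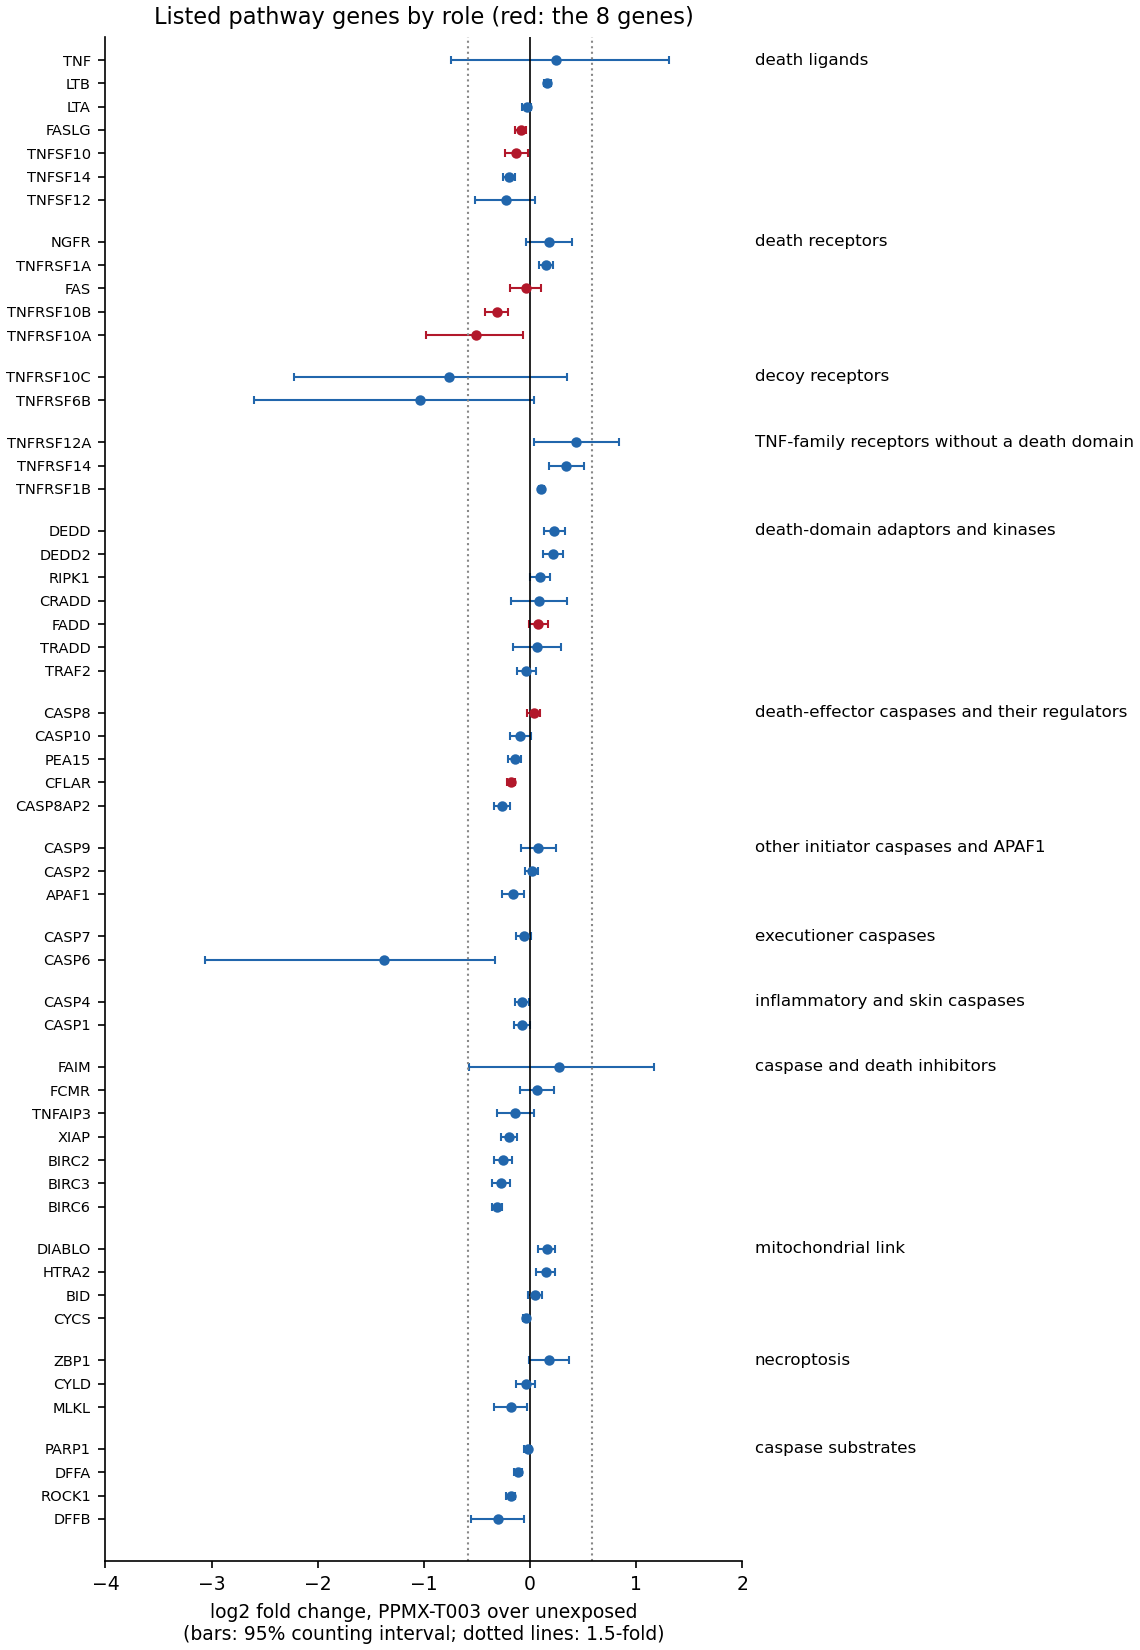
Log2 fold change, PPMX-T003 over unexposed, of the tested pathway genes grouped by role, 1 of them not shown, with 95% counting intervals and dotted lines at 1.5-fold. The 8 genes are red and the others blue. Of those shown, CASP6, TNFRSF10C and TNFRSF6B have points beyond the dotted lines.

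Among 7 tested ligand genes, 3 intervals lay below 0 and 1 above (23.9% and 21.8% of all tested genes), and after the fit 4 lay below and 0 above, since LTA and TNFSF12, named here for that change of call, were then below while TNFSF10 and LTB held 0. Besides FASLG and TNFSF10 the lower gene was TNFSF14, which encodes LIGHT, with 6253 and 5027 counts (-0.20, interval -0.25 to -0.14). LTB, which encodes lymphotoxin beta, stood highest per length in this list, at a TPM of 792 and 855 with 14478 and 14948 counts, and its level was higher by 0.16 (0.13 to 0.20), or 0.015 after the fit was removed. FASLG thus had a lower level per length than this other member of its family. TNFSF15 had 2 and 0 counts.

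Of 8 death receptor genes 5 were tested. TNFRSF1A, which encodes TNF receptor 1, stood highest per length at a TPM of 79 and 84, above TNFRSF10B and FAS. It had 3558 and 3646 counts and a log2 fold change of 0.15 (0.085 to 0.22), opposite in sign to the TRAIL receptors, and 0.074 (0.0072 to 0.14) after the fit was removed, or 0.059 (-0.0081 to 0.13), which held 0, with the longest transcripts in the fit. TNFRSF25, TNFRSF21 and EDAR had 0 counts in both libraries. The TRAIL decoy receptor genes TNFRSF10D and TNFRSF11B also had 0 counts, where 0 allows up to 3 counts, or 0.0641 CPM in the unexposed and 0.0695 CPM in the exposed library. Thus among the receptors for TRAIL, TNFRSF10B had the most counts. TNF-family receptors without a death domain had 3 of 3 intervals above 0 (21.8% of all tested genes), but 1 of 3 after the fit, that of TNFRSF14. TNFRSF1B, the gene of TNF receptor 2, had 30295 and 30066 counts (0.11, interval 0.083 to 0.13), and TNFRSF14, a receptor for LIGHT, had 554 and 649 (0.34, interval 0.18 to 0.51). After the fit these stood at -0.0034 and 0.20. With the longest transcripts TNFRSF1B was at 0.037 (0.014 to 0.060), above 0 again. TNFRSF14 overlaps TNFRSF14-AS1 on the opposite strand (419 and 431 counts, 0.16). LTBR had 0 counts in both libraries.

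Of the 7 adaptors and kinases with FADD, 3 intervals lay above 0 and 0 below (21.8% and 23.9% of all tested genes), and FADD had the highest TPM. After the fit 2 lay above and 1 below. DEDD, which encodes a death effector domain protein, had 1610 and 1742 counts (0.23, interval 0.13 to 0.33), or 0.21 after the fit. Its exons overlap those of NIT1 on the opposite strand, which had 812 and 981 counts (0.39), so its value is uncertain if reads were counted without regard to strand. Around CASP8, in the list of death-effector caspases and their regulators, 3 of 5 intervals lay below 0 (23.9% of all tested genes). These were CFLAR, CASP8AP2, which encodes a protein that binds caspase-8 (3270 and 2515 counts, -0.26, interval -0.34 to -0.19), and PEA15, which encodes a death effector domain protein (4742 and 3960 counts, -0.14, interval -0.20 to -0.082). All 3 also lay below 0 after the fit was removed, while CASP8 was above, with CASP8AP2 at -0.17 and PEA15 at -0.15. When longest transcripts entered the fit 2 of the 5 lay below 0, since CFLAR held 0, against 19.2% of the tested genes with a GC value.

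Beside CASP8 in the caspase lists, APAF1, which encodes the scaffold of the mitochondrial pathway, had 1811 and 1495 counts (-0.16, interval -0.26 to -0.060), or -0.034 after the fit, where its interval held 0. CASP2 was at 0.019 (-0.042 to 0.080), or 0.071 (0.0098 to 0.13) after the fit, which no longer held 0. When longest transcripts entered the fit it was at 0.038 (-0.023 to 0.099), which held 0 again. The inflammatory caspase gene CASP4 was at -0.075 (-0.14 to -0.0056), or -0.047 (-0.12 to 0.022) after the fit, which held 0, and -0.085 (-0.15 to -0.016) with the longest transcripts, which did not. CASP5 and CASP14 had 0 counts.

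Among the genes of inhibitors other than CFLAR, 4 of 7 intervals lay below 0 (23.9% of all tested genes) and 3 held 0, with a median of -0.20. BIRC6, an inhibitor of apoptosis gene, had 8179 and 6088 counts (-0.31, interval -0.36 to -0.26), and BIRC2, which encodes cIAP1, 2673 and 2068 (-0.25, interval -0.34 to -0.17). Their GC content is 42.9% and 42.3%, in the range where the median gene was lower. After the fit was removed they were at -0.12 and -0.18, 3 of the 7 intervals lay below 0, and the median was -0.12. FAIM2 had 0 counts. In the mitochondrial link, DIABLO, whose product opposes inhibitor of apoptosis proteins, had 2642 and 2719 counts (0.16, interval 0.081 to 0.24), or 0.15 after the fit, but 0.077 (-0.00050 to 0.16), which held 0, with the longest transcripts. CYCS, the gene of cytochrome c, was at -0.038 (-0.067 to -0.0093), or -0.0023 after the fit, and the direction turned with the longest transcripts, to 0.039 (0.010 to 0.068).

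In the necroptosis list, RIPK3, the kinase gene of this form of death that caspase-8 restrains, had 0 counts in both libraries. MLKL, which encodes the effector that this kinase activates, had 748 and 608 counts (-0.18, interval -0.34 to -0.025), or -0.21 after the fit. Among caspase substrates, 3 of 4 intervals lay below 0 (23.9% of all tested genes), and 3 of 4 after the fit, with PARP1 in place of ROCK1. ROCK1 had 9349 and 7603 counts (-0.18, interval -0.22 to -0.14), or -0.0058 after the fit, and PARP1, the most abundant of them per length at a TPM of 231 and 219, was at -0.022 (-0.052 to 0.0077), or -0.12 (-0.15 to -0.092) after the fit. When longest transcripts entered the fit PARP1 was at -0.014 (-0.044 to 0.015), which held 0 again. On that scale 2 of the 4 intervals lay below 0, against 19.2% of the tested genes with a GC value. The longest transcript of PARP1 has 3958 bases, against a median of 561.5.

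The genes lie at separate places of GRCh38, except that CFLAR (chr2:201116164-201176687) and CASP8 (chr2:201233463-201287711) are near each other, as are TNFRSF10B and TNFRSF10A on chromosome 8. FASLG lies at chr1:172659103-172666876, TNFSF10 at chr3:172505508-172523430, FAS at chr10:88964050-89017059 and FADD at chr11:70203296-70207390. In GENCODE release 29, exons of FAS overlap those of ACTA2 on the opposite strand (19 and 24 counts), and exons of TNFRSF10B overlap those of RHOBTB2 (1137 and 1091 counts, log2 fold change 0.058). Whether the counting used the strand is not given in the sources used here, so reads of such partners cannot be told apart if it did not. The part of these partners in the values of FAS and TNFRSF10B was not tested. TNFRSF10A, which had the fewest counts of the 8 genes, overlaps TNFRSF10A-AS1 and a further gene on the opposite strand, and FADD overlaps 1 such gene, and these partners were not analysed here. CFLAR-AS1, on the opposite strand of CFLAR, had 0 counts in both libraries. Among the other genes named, CASP6 overlaps MCUB on the opposite strand (700 and 829 counts, 0.36).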

How the data were processed

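RNA of 1 unexposed and 1 exposed dish of NK92 cells was sequenced. Per the submitters' processing notes, the authors used Trimmomatic 0.38, HISAT2 2.2.0, StringTie 2.1.3b and edgeR 3.17 with hg38. The authors deposited read counts per gene, written with commas between digits that were removed, and FPKM and TPM rounded to whole numbers, which were treated as a score. Because of the commas the counts were recorded under another unit than plain counts. No count model with a spread between replicates was fitted, since there is 1 library per group. All columns of per-sample values were used.

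Counts were scaled by the trimmed mean of M-values (trimming 30% of log ratios and 5% of levels), with factors of 1.00 and 0.999, and log2 fold changes used a prior count of 2. Regression used statsmodels 0.14.6, intervals scipy 1.17.1, and tables pandas 2.3.3 and numpy 2.4.6 under Python 3.11.15. Fold changes and their counting intervals were tested on simulated libraries that held counting error and set changes only. The fit and the ratios were not tested in this way. Genes with at least 20 summed counts were tested, and up to 3 counts in a library were taken as not detected. Length and GC content were medians over the protein-coding transcripts of GENCODE release 29, known for 88.5% of the tested genes and all 55 tested pathway genes, and a robust quadratic regression on both was fitted. Changes of ratios have exact conditional intervals.

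The members and lists were chosen with earlier results of these data known. Named genes are the 8, and of each role list the gene with the highest TPM without PPMX-T003, those with the largest rise and fall by the interval bound nearest to 0 among genes of at least 100 counts, and genes not detected. LTA, TNFSF12, CASP6 and TNFRSF10C fall outside this rule and were chosen after their values were seen. Results of 2 genes are not reported here. Alternatives were 3 other scalings, priors of 0.5 and 5, count minimums of 1 and 200, TPM with a pseudocount of 1, FPKM and the fit.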

Additional observations from a re-analysis of the deposited data

How the results depend on the processing

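No paired analysis was possible because there is 1 library in each group, which also leaves no replicate to omit. Under 3 other scalings and prior counts of 0.5 and 5, the log2 fold changes of the 8 genes moved by less than their counting intervals, and 1 interval came to exclude 0, that of FADD with upper-quartile scaling. With the deposited TPM, FAS was at -0.263 and the change of FASLG to FAS at 0.154, and the cause was not tested. On that scale 1 listed pathway gene was at least 1.5-fold higher, against 0, and 4 lower, among them TNFRSF10A. When each gene's longest transcript entered the fit on length and GC content, an alternative chosen after seeing the data, FADD was at -0.0345 and CFLAR, which had been lower, at 0.00225. The cause was not tested. TNFRSF10B stayed between -0.392 and -0.301 under the alternatives run, and TNFRSF10A between -0.585 and -0.488. The counts of pathway genes with intervals above and below 0 were within 1.5 times the main counts under the scalings and fits.

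By lengths chosen after seeing the data, CFLAR stood at 2.5 times FASLG in the unexposed library per median transcript and at 0.279 per longest, against 0.448 by TPM. After the fit 334 genes were at least 1.5-fold higher and 354 lower, 108 at least 2-fold higher and 126 lower, or 315, 365, 102 and 128 with the longest transcripts, against 538, 525, 173 and 188. Genes without a GC value drop out there. With all genes of at least 1 count, 2398 were at least 1.5-fold higher and 1980 lower, 1448 at least 2-fold higher and 1033 lower. With at least 200 counts these numbers were 66, 69, 13 and 8. They follow from which genes are tested. Depth limits TNFRSF10A most, with 104 and 67 counts.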
